A study of Mus musculus with 7 samples.

Results

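The genes described here are 40 genes of the extracellular matrix, of the enzymes that remodel it and of mesenchymal cells, chosen as a list of names and found in the files by their Ensembl identifiers. Of the 40, 38 had at least 1 listed transcript start or end, out of 13641 such genes in all. They were measured by RNA sequencing of total RNA in 7 cultures, 1 control and 1 exposed to each of carbaryl, chlorpyrifos, DDT, deltamethrin, imidacloprid and rotenone, in a study of how insecticides affect developing neural cells. All 7 cultures came from wild-type (WT) cells of a single mouse embryonic stem cell line, B6G-2. The stem cells spent 6 days as embryoid bodies, and neural progenitors were then grown with bFGF and EGF on poly-ornithine and laminin. Day 14 progenitors were differentiated in BrainPhys medium with B27, and each exposed culture received its insecticide for 1 day. The labels give no dose and no vehicle, they call the tissue brain, whereas the cells were made in culture, and the laminin coating was shared by all groups. Chlorpyrifos is an organophosphate, carbaryl a carbamate, DDT an organochlorine, deltamethrin a pyrethroid, imidacloprid a neonicotinoid and rotenone an inhibitor of mitochondrial complex I.

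The extracellular matrix is the secreted scaffold around cells. Fibrillar collagens give it tensile strength, the basement membrane network of type IV collagen, laminins and nidogens underlies epithelia and vessels, and in the developing brain hyaluronan-binding proteoglycans and tenascins fill the space between cells. Much of the fibrillar matrix of a brain is made by meningeal and perivascular fibroblasts and by mural cells, whereas radial glia and astrocytes make tenascin-C, SPARC and brevican.

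Levels are in FPKM, fragments scaled to transcript length and library size, as deposited for each transcript start and each transcript end. A gene's start total is the sum over its distinct starts, and its end total the sum over its distinct ends. Where the means of both totals over the 7 libraries lay within 0.3 of each other on the log2 scale, their mean was taken as the gene's level, and a gene with such a level averaging at least 1 FPKM is called usable. Of the 40 genes, 23 were usable, in 10 the ends disagreed, 4 had a start total only, 1 had an end total only, and Lox and Loxl2 had neither. In the whole series 6299 genes were usable. Fold differences are differences of log2(FPKM + 1), which understates the change of genes at low levels. Each group was a single library, so no difference below has a replicate check and no test was possible. In bulk RNA, fewer cells of a type and less RNA per cell cannot be told apart.

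The cultures had the markers of neural progenitors and few of any mesenchymal cell type. Vim, an intermediate filament gene of radial glia and mesenchyme, was at 987 to 1221 FPKM, and Sox2, a neural progenitor transcription factor, at 16.4 to 28.3 FPKM. For the list of neural progenitor and radial glia markers the larger end totals summed to 1346 to 1639 FPKM over the 7 libraries, with 1 of 10 genes, Sox1, not listed. The 7 pericyte and smooth muscle markers summed to 0.789 to 1.76 FPKM, and Rgs5, Abcc9, Kcnj8 and Myh11 were not listed in any library. The 9 fibroblast and meninges markers summed to 36.3 FPKM in control and to 66.2 FPKM in rotenone, the lowest and highest libraries, and almost all of that came from Zeb1 and Zeb2, transcription factors that neural progenitors also express. Zeb1 was at 18.4 FPKM in control and 34.6 to 53.7 FPKM in exposed libraries. Pdgfra, Dpt, Foxc1, Foxc2 and Tbx18 had no line. The summed levels were 208 to 239 FPKM for neuron markers and 102 to 134 FPKM for astrocyte markers. For oligodendrocyte lineage markers they were 114 to 175 FPKM, for neural crest markers 4.36 to 6.18 FPKM and for endothelium markers 1.12 to 1.77 FPKM. Vim made up most of the progenitor sum and Map2 most of the neuron sum. Olig2, at 110 to 169 FPKM, made up nearly all of the oligodendrocyte lineage sum. Aldoc and Aldh1l1 made up most of the astrocyte sum, while Gfap, Aqp4 and S100b reached at most 0.678, 0.870 and 0.304 FPKM. A gene that is not listed had no reported transcript structure, which does not show that it was silent. Tubb3 of the neuron list and Olig1 of the oligodendrocyte lineage list were also not listed in any library.

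In all 6 comparisons with control, Mmp14 was the only usable listed gene that differed by 2-fold or more. The 6 comparisons share 1 control library, so they are not independent of each other. The median log2 fold of the 23 usable genes was 0.05 in chlorpyrifos, -0.11 in DDT, 0.17 in rotenone, -0.03 in carbaryl, 0.04 in deltamethrin and 0.08 in imidacloprid. Over all usable genes these medians lay between -0.00077 in carbaryl and 0.01 in imidacloprid. The share of all usable genes that were 2-fold or more higher than control was 0.734% in chlorpyrifos, 0.781% in DDT, 0.702% in rotenone, 0.847% in carbaryl, 0.718% in deltamethrin and 0.877% in imidacloprid, against 1 of the 23 in each. For 2-fold or more lower the shares were 0.877%, 0.957%, 0.941%, 1.29%, 0.989% and 0.846% in the same order, against 0 of the 23. In either direction the shares were 1.61%, 1.74%, 1.64%, 2.14%, 1.71% and 1.72%, against 1 of the 23 each time, Mmp14. Within 1.5-fold of control were 22 of the 23 in chlorpyrifos and in carbaryl, 21 in DDT, deltamethrin and imidacloprid, and 19 in rotenone. In rotenone this is 82.6% of the listed genes against 93.7% of all usable genes. Over the 6 comparisons the share of all usable genes was 93.2% to 94.1%. The genes beyond 1.5-fold in rotenone were Mmp14, Acta2, Postn and Tnc. The list was chosen with the higher Acta2 and Postn in rotenone already known, and the Tnc fold came from its start total. The lower share in rotenone therefore gives no independent support.

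**Figure D1:**
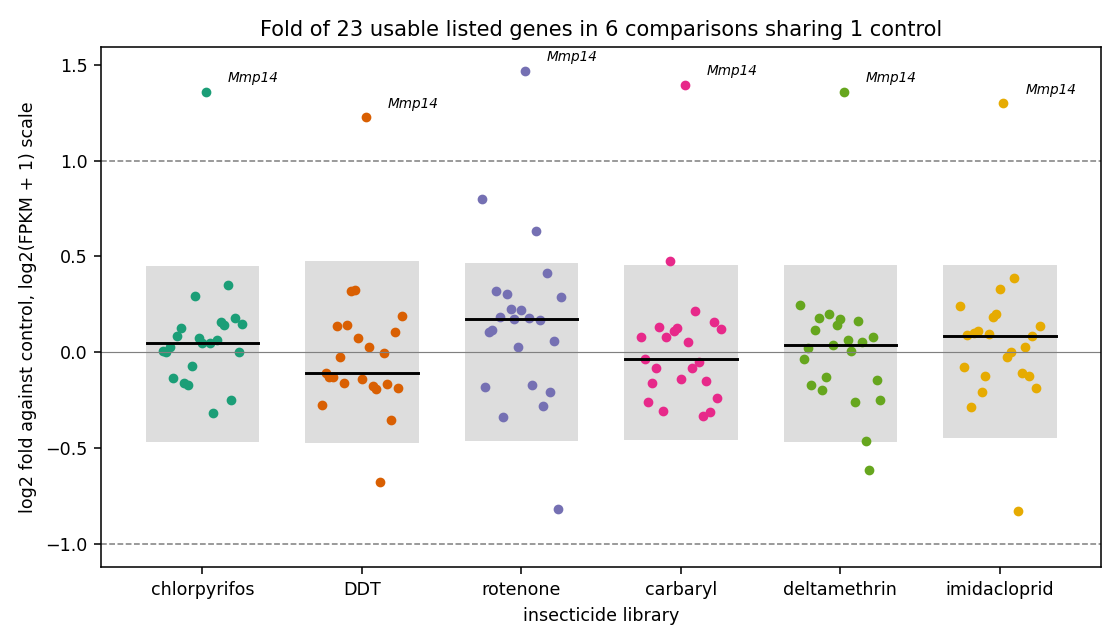
Log2 fold against control, on the log2(FPKM + 1) scale, for the 23 usable listed genes (points) in each of the 6 insecticide libraries. Black bars are the medians of the points, grey boxes span the 5th to 95th percentile of all usable genes, and dashed lines mark 2-fold; only Mmp14 lies beyond a dashed line, at 1.23 to 1.47 in every library.

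Between libraries, Mmp14 and Acta2 had the widest range of the usable listed genes on the log2(FPKM + 1) scale. The highest library exceeded the lowest by a median log2 difference of 0.47 in the 23 genes and of 0.37 in all usable genes. This difference reached 2-fold in those 2 of the 23 (8.70%) and in 9.86% of all usable genes. At the other end, Timp2, Col11a1, Lamc1, Nid1 and Col4a2 differed by no more than 0.21 on the log2 scale between their highest and lowest libraries. Of the 23 genes, 4 were above control in all 6 exposed libraries, Lamb1, Lamc1, Mmp14 and Timp2, against 13.8% of all usable genes. Below control in all 6 were 3 genes, Col6a2, Thbs1 and Tnc, against 12.8%. Between pairs of exposed libraries, 0 or 1 of the 23 usable listed genes differed by 2-fold or more, against 1.64% to 2.01% of all usable genes.

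**Figure D2:**
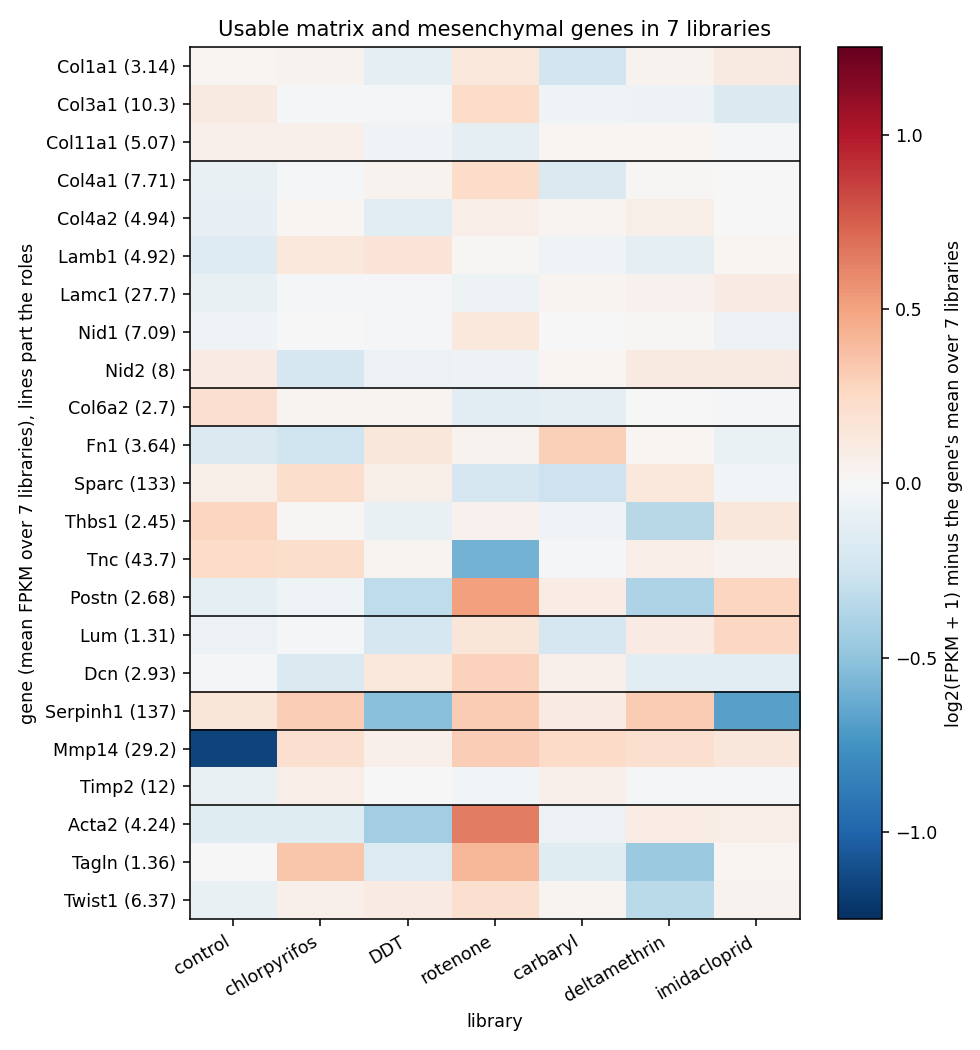
Log2(FPKM + 1) of each usable listed gene (rows, with the gene's mean FPKM in brackets) in each library (columns), minus the gene's mean over the 7 libraries; horizontal lines part the functional groups. The strongest colours are Mmp14 in control (low), Serpinh1 in DDT and imidacloprid (low), Tnc in rotenone (low) and Acta2 and Postn in rotenone (high).

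Among the proteases and their inhibitors, Mmp14 encodes a membrane-anchored metalloprotease that cleaves collagens and activates pro-MMP2. It was at 11.9 FPKM in control, 32.2 FPKM in chlorpyrifos, 29.2 FPKM in DDT, 34.8 FPKM in rotenone, 33.0 FPKM in carbaryl, 32.2 FPKM in deltamethrin and 30.8 FPKM in imidacloprid. The control library was the low one, and the 6 exposed libraries lay between 29.2 and 34.8 FPKM, with no insecticide apart from the rest. Start and end totals gave the same picture, at 12.1 and 11.8 FPKM in control. The log2 folds were 1.36 in chlorpyrifos, 1.23 in DDT, 1.47 in rotenone, 1.40 in carbaryl, 1.36 in deltamethrin and 1.30 in imidacloprid. Mmp14 was 1 of 15 genes, 0.24% of those measured above 0 in all libraries, that were 2-fold or more above control in all 6 exposed libraries. Others of the 15 were Syt1, a synaptic vesicle calcium sensor, at 3.07 FPKM in control and 11.5 to 14.7 FPKM in exposed libraries, and Hras, a small GTPase, at 13.5 FPKM in control and 39.7 to 44.0 FPKM. For 2-fold or more below control in all 6, the share of all genes was 0.016%, and 0 of the 23 were among them. Because the comparisons share 1 control library, a low value in that library alone and a response to all 6 insecticides cannot be told apart.

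The Mmp14 transcript start lies on chromosome 14. The 250 bases before the start that RefSeq gives for it are shown because this is the gene with the one difference of 2-fold; they are on GRCm38.p6 at chr14:54431348-54431597, plus strand, with matches to GGGCGG, a GC box, in capitals.
Mmp14: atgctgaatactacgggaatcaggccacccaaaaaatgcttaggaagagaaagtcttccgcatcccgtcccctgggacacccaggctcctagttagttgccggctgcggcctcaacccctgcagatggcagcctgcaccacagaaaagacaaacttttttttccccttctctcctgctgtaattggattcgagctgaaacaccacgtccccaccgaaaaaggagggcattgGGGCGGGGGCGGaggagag
GGGCGG was searched on both strands and occurred 2 times in a row, ending 14 and 8 bases before the start, and TATAAA did not occur. Of the windows of this length for all RefSeq starts in the table, 32.7% of 32851 held GGGCGG and 12.4% held TATAAA. For the listed genes 25 of 40 had a window, 29 windows in all, of which 20 held GGGCGG and 5 held TATAAA.

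Mmp2, the gelatinase that MMP14 activates, had start totals of 10.1 FPKM in control, 12.6 in chlorpyrifos, 8.96 in DDT, 9.55 in rotenone, 12 in carbaryl, 11.7 in deltamethrin and 9.72 in imidacloprid, while its end totals were much lower. Timp2, an inhibitor of both enzymes, was at 11.1 FPKM in control and 11.6 to 12.7 FPKM in the exposed libraries. Timp3, a matrix-bound inhibitor, had start totals of 5.17 FPKM in control and 4.87 to 6.08 FPKM in the others. Neither inhibitor gene nor Mmp2 had a low control value like that of Mmp14.

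**Figure D3:**
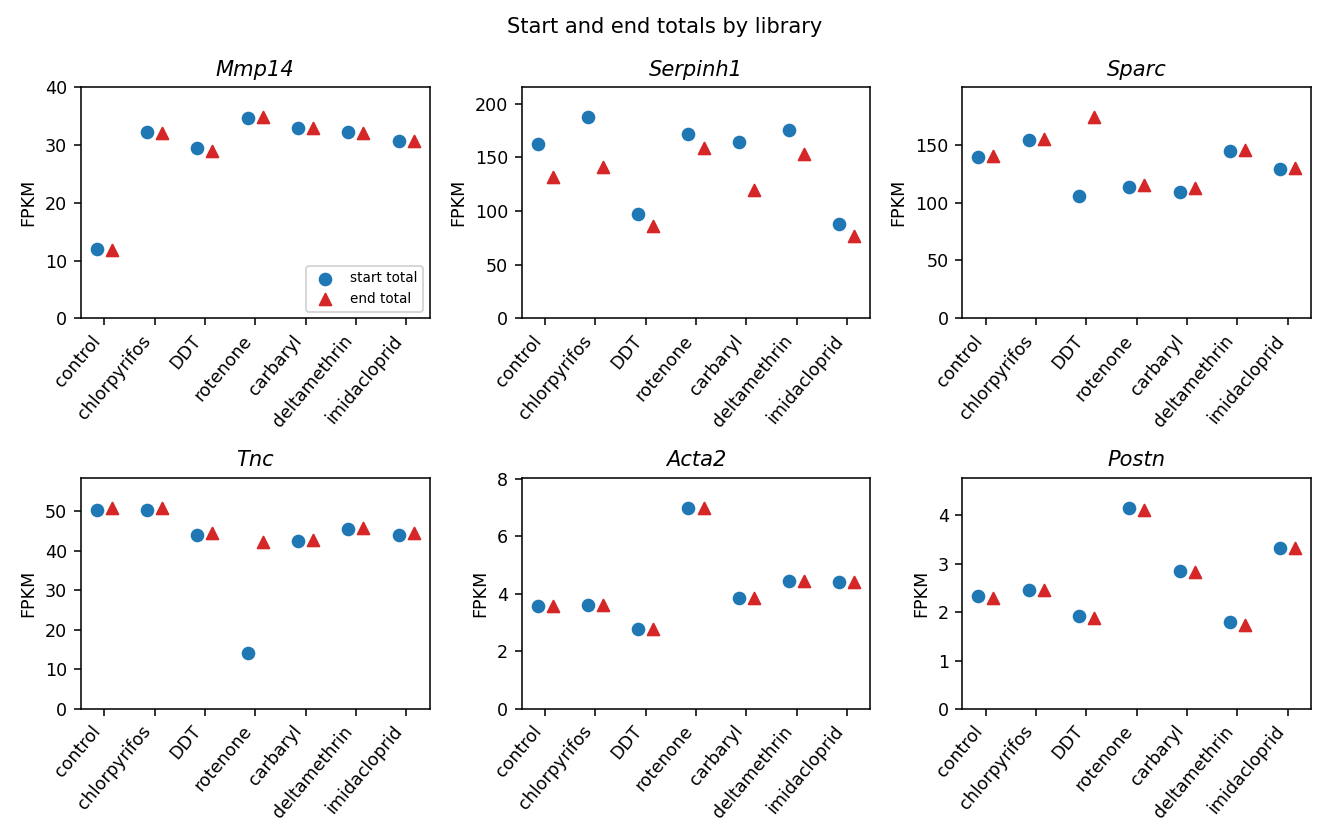
Start totals (circles) and end totals (triangles) in FPKM, from 0, of 6 listed genes in each library. Mmp14 is low in control alone, Serpinh1 is low in DDT and imidacloprid, Acta2 and Postn are highest in rotenone, and the start and end totals part for Sparc in DDT and for Tnc in rotenone.

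The usable mesenchymal and smooth muscle cell genes, Acta2, Tagln and Twist1, were all highest in the rotenone library. Acta2, the smooth muscle actin, was at 3.59 FPKM in control, 3.61 in chlorpyrifos, 2.79 in DDT, 6.98 in rotenone, 3.84 in carbaryl, 4.43 in deltamethrin and 4.41 in imidacloprid. Rotenone stood above the rest, with a log2 fold of 0.80 against control, and DDT was lowest. Reads of Acta2 may be shared with other actin genes of near-identical sequence. Tagln, an actin-binding protein of smooth muscle, was at 1.32 FPKM in control, 1.95 in chlorpyrifos, 1.07 in DDT, 2.09 in rotenone, 1.09 in carbaryl, 0.680 in deltamethrin and 1.36 in imidacloprid. Tagln was thus highest in rotenone and chlorpyrifos and lowest in deltamethrin, all at levels where the scale compresses differences.

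Twist1, a transcription factor of mesenchyme, was at 5.88 FPKM in control, 6.63 in chlorpyrifos, 6.85 in DDT, 7.41 in rotenone, 6.47 in carbaryl, 4.78 in deltamethrin and 6.55 in imidacloprid. Prrx1, a mesenchymal homeobox factor, had start totals of 1.63 to 2.57 FPKM, with control at 2.02 FPKM. Pdgfrb, the growth factor receptor of pericytes, reached at most 1.31 FPKM at either end and was not listed at all in deltamethrin.

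Of the 23 usable listed genes, 12 (52.2%) had their highest value in the rotenone library, against 16.6% of all usable genes. They were Col1a1, Col3a1, Col4a1, Col4a2, Nid1, Postn, Dcn, Serpinh1, Mmp14, Acta2, Tagln and Twist1. Some of these led by little: Serpinh1 was at 165 FPKM in rotenone and in deltamethrin and 164 FPKM in chlorpyrifos. Control and chlorpyrifos were each highest for 3 genes, imidacloprid for 2, and DDT, carbaryl and deltamethrin for 1 each, against 12.8%, 13%, 15.1%, 17.3%, 12.5% and 12.8% of all usable genes in that order. Among genes averaging at least 5 FPKM the rotenone library was highest for 6 of 12. With the larger end total and no rule on end agreement it was highest for 15 of 37 (40.5%), against 15.7% of all genes. The list was chosen with the higher Acta2 and Postn in rotenone already known, so its excess in rotenone gives no independent support. Tnc, Col6a2 and Col11a1 went the other way and were lowest in rotenone. For Tnc the low value came from a start total of 14.1 FPKM. Its end total in rotenone, 42.3 FPKM, was close to the 42.8 FPKM in carbaryl. The fibroblast and meninges marker list was also highest in rotenone, at 66.2 FPKM against 63.7 FPKM in chlorpyrifos. Zeb1 was at 53.0 FPKM in rotenone and 53.7 FPKM in chlorpyrifos, and Zeb2 at 13.2 and 9.55 FPKM. The pericyte and smooth muscle list was at 1.23 FPKM in rotenone, inside the range of the other libraries. The part of either list in the rotenone values was not tested.

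**Figure D4:**
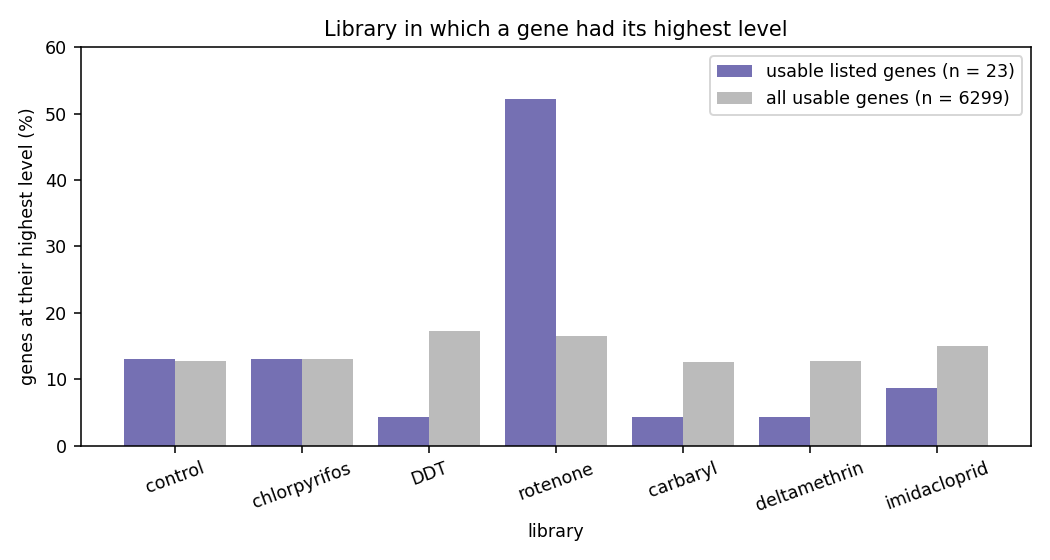
Share of genes (in percent, bars from 0) whose highest level of the 7 libraries was in the library named, for the 23 usable listed genes (purple) and for all 6299 usable genes (grey). Rotenone holds 52.2% of the listed genes and 16.6% of all genes. Each other library holds between 4.35% and 13.0% of the listed genes. The list was chosen with the higher Acta2 and Postn in rotenone already known.

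The usable fibrillar collagens were at 2.49 to 12.2 FPKM, and none of them differed from control by 1.5-fold in any library. Col3a1, the chain of type III collagen, was at 11.2 FPKM in control, 10.1 in chlorpyrifos and in DDT, 12.2 in rotenone, 9.90 in carbaryl, 9.82 in deltamethrin and 8.97 in imidacloprid. Col1a1, a chain of type I collagen, was at 3.19 FPKM in control and between 2.49 FPKM in carbaryl and 3.51 FPKM in rotenone. Its partner Col1a2 had an end total of 3.15 FPKM in control and 1.80 to 3.30 FPKM in the exposed libraries, and a start total of 0.0509 FPKM in control and 1.83 to 2.82 FPKM in the exposed libraries. Col11a1, a type XI chain that sets fibril diameter, was at 5.33 FPKM in control and 4.58 to 5.34 FPKM in the others. For the type V chains, Col5a1 had end totals of 4.71 to 5.46 FPKM with few starts listed, and Col5a2 had end totals of 0.693 to 2.09 FPKM. The 3 usable fibrillar genes had a median log2 fold between -0.16 in carbaryl and 0.11 in rotenone.

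The basement membrane genes had medians slightly above control in all 6 exposed libraries, although Nid2 was below control in 4 of them. The median log2 fold of the 6 usable genes was 0.08 in chlorpyrifos, 0.05 in DDT, 0.18 in rotenone, 0.08 in carbaryl, 0.09 in deltamethrin and 0.10 in imidacloprid. Col4a1 and Col4a2 encode the chains of the main type IV collagen and lie head to head, with starts 21 bases apart on opposite strands in RefSeq. Col4a1 was at 7.12 FPKM in control, 7.60 in chlorpyrifos, 7.93 in DDT, 9.15 in rotenone, 6.68 in carbaryl, 7.79 in deltamethrin and 7.69 in imidacloprid. Col4a2 was at 4.53 FPKM in control, 5.04 in chlorpyrifos, 4.43 in DDT, 5.29 in rotenone, 5.07 in carbaryl, 5.26 in deltamethrin and 4.97 in imidacloprid. Both were highest in rotenone, but in DDT and in carbaryl they lay on opposite sides of control.

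The usable laminin chains of the main list, Lamb1 and Lamc1, were above control in all 6 exposed libraries. Lama5, a usable laminin gene of a further list described below, did not share this. It was at 6.42 FPKM in control, 7.45 in chlorpyrifos and 5.07 to 5.92 in the other exposed libraries. Lamb1, the beta 1 chain, was at 4.29 FPKM in control, 5.47 in chlorpyrifos, 5.62 in DDT, 4.96 in rotenone, 4.71 in carbaryl, 4.42 in deltamethrin and 4.99 in imidacloprid. Lamc1, the gamma 1 chain that most laminins contain, was the most abundant basement membrane gene of the list, at 25.9 FPKM in control and 26.4 to 29.8 FPKM in the others. Lama4, an alpha chain of vessel laminins, had end totals of 1.81 to 2.96 FPKM. The nidogens, which link laminin to type IV collagen, did not move together: Nid1 was at 6.81 FPKM in control and 6.69 to 7.84 FPKM in exposed libraries, and Nid2 at 8.65 FPKM in control and 6.75 to 8.70 FPKM.

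Lamb1 also differed between libraries in its listed start exons. How often start exons of other genes differ as much was not examined, here or for Sparc, Dcn and Bcan below. A start exon at chr12:31265234-31265344 of GRCm38 made up 26.8% of the start total in control, 0% in chlorpyrifos, 26.7% in DDT, 51.9% in rotenone, 0% in carbaryl, 17.6% in deltamethrin and 58.7% in imidacloprid. An overlapping start exon, chr12:31265293-31265601, made up nearly all of the rest.

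Among the microfibril genes and other collagens, Col6a2 was the usable one. This chain of type VI collagen was at 3.23 FPKM in control, 2.78 in chlorpyrifos and in DDT, 2.34 in rotenone, 2.41 in carbaryl, 2.69 in deltamethrin and 2.66 in imidacloprid, so control was highest. Its neighbour Col6a1 had start totals of 2.39 to 3.45 FPKM and end totals of 2.80 to 3.86 FPKM. Fbn1, the main microfibril protein, had end totals of 8.14 FPKM in control and 4.83 to 7.48 FPKM in the others, while its start totals were 2.36 to 3.38 FPKM in control, chlorpyrifos, rotenone and deltamethrin and 0.153 to 0.192 FPKM in DDT, carbaryl and imidacloprid. Fbln1, a fibulin that binds fibronectin and laminin, had start totals of 29.5 to 34.8 FPKM and end totals of 22.6 to 26.6 FPKM, both highest in deltamethrin.

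The matrix glycoproteins ranged from Sparc, above 100 FPKM in every library, to Thbs1, Postn and Fn1, below 5 FPKM. Sparc, a collagen-binding protein of radial glia and mesenchyme, had start totals of 139 FPKM in control, 154 in chlorpyrifos, 105 in DDT, 114 in rotenone, 109 in carbaryl, 145 in deltamethrin and 129 in imidacloprid. Its end totals matched these except in DDT, where the end total was 174 FPKM, so the DDT library was the lowest by its starts and the highest by its ends. A start exon at chr11:55420079-55420290 of GRCm38 made up 45.2% of the start total in control, 46.0% in chlorpyrifos and in deltamethrin, 38.7% in imidacloprid, 35.7% in carbaryl, 28.3% in rotenone and 14.6% in DDT. The other main start exon, chr11:55419788-55419898, held 53.9% to 85.3%. The FPKM of the latter exon ranged from 70.3 to 89.9, that of the former from 15.4 to 70.8.

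Tnc, tenascin-C of radial glia and astrocytes, had end totals of 50.8 FPKM in control, 50.7 in chlorpyrifos, 44.4 in DDT, 42.3 in rotenone, 42.8 in carbaryl, 45.7 in deltamethrin and 44.6 in imidacloprid. Its start totals were close to these in every library but rotenone, where the start total was 14.1 FPKM. The log2 fold of -0.82 in rotenone came from that start total, since the end total in rotenone was close to those of the other exposed libraries. Thbs1, thrombospondin-1, an adhesion protein that activates latent TGF-beta, was at 3.12 FPKM in control, 2.47 in chlorpyrifos, 2.22 in DDT, 2.56 in rotenone, 2.32 in carbaryl, 1.69 in deltamethrin and 2.78 in imidacloprid. Control was highest and deltamethrin lowest, with a log2 fold of -0.62.

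Fn1 encodes fibronectin, which cells bind through integrins, and its levels were lowest in chlorpyrifos and control. It was at 3.07 FPKM in control, 2.87 in chlorpyrifos, 4.08 in DDT, 3.75 in rotenone, 4.65 in carbaryl, 3.68 in deltamethrin and 3.35 in imidacloprid. Fibronectin of embryonic and injured tissue includes the alternative exons EDA and EDB, which plasma fibronectin lacks. Both are shown because their inclusion varied between libraries; each exon is in capitals, with 10 bases of the neighbouring exons of the spliced transcript on each side in lower case, from GENCODE M21 on GRCm38, minus strand, with EDA at chr1:71603660-71603929 and EDB at chr1:71613763-71614035.
Fn1 EDA: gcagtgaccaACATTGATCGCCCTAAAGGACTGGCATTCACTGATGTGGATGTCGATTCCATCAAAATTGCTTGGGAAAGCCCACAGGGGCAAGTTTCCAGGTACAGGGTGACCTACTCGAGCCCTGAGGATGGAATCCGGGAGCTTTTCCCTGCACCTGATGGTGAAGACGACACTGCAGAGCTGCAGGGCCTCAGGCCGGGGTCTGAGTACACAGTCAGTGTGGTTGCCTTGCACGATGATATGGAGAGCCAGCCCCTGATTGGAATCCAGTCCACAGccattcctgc
Fn1 EDB: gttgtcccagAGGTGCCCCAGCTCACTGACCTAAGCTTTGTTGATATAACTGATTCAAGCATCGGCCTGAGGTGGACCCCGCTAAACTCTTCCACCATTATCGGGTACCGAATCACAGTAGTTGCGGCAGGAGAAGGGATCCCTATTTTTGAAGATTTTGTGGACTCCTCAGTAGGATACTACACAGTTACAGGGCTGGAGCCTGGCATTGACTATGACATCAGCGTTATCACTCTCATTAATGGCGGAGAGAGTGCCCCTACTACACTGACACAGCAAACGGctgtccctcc
EDA has 270 bases and EDB 273 bases, both multiples of 3, so including or skipping either keeps the reading frame.

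Inclusion is the FPKM of structures with the exon as a percentage of those with plus those without it. EDA inclusion was 100% in control, DDT, deltamethrin and imidacloprid, where no skipping structure was listed, and 68.6% in chlorpyrifos, 62.1% in rotenone and 77.2% in carbaryl. EDB inclusion was 83.0% in control, 2.08% in chlorpyrifos, 44.1% in DDT, 60.8% in rotenone, 70.6% in carbaryl, 96.2% in deltamethrin and 95.5% in imidacloprid. Chlorpyrifos was the one library in which nearly all Fn1 lacked EDB, with 0.0568 FPKM with it and 2.67 FPKM without it. Such swings were common: among 3646 alternatively skipped exons the inclusion ranged over a median of 35.6 percentage points between libraries, and over 44.2 points in genes of 1 to 5 FPKM. A range as wide as that of EDB, 94.1 points, was met in 2.69% of exons, and one as wide as that of EDA, 37.9 points, in 46.4%. Among exons of like level these shares were 5.96% and 59.6%. In each comparison with control, inclusion differed by 20 points or more in 31.9% of exons for chlorpyrifos, 31.6% for DDT, 30.2% for rotenone, 31.7% for carbaryl, 31.8% for deltamethrin and 31.6% for imidacloprid.

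Postn, periostin, a collagen-binding protein of fibroblasts that links matrix to integrins, was at 2.31 FPKM in control, 2.46 in chlorpyrifos, 1.9 in DDT, 4.14 in rotenone, 2.84 in carbaryl, 1.76 in deltamethrin and 3.33 in imidacloprid. Rotenone was highest, with a log2 fold of 0.63, then imidacloprid. Periostin has a series of alternative exons near its C-terminus, and a pair of these that was both included and skipped here is shown in capitals, with 10 bases of neighbouring exons in lower case, on the plus strand of GRCm38 at chr3:54380412-54380492 and chr3:54385671-54385754.
Postn exon of 81 bases: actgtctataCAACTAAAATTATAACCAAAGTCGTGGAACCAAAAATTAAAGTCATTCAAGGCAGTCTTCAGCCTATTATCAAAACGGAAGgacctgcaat
Postn exon of 84 bases: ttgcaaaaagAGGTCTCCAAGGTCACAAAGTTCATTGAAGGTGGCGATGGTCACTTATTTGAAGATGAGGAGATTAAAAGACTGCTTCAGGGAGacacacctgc
Inclusion of the exon of 81 bases was 58.7% in control, 0.987% in chlorpyrifos, 68.2% in DDT, 61.9% in rotenone, 0.393% in carbaryl, 66.3% in deltamethrin and 26.7% in imidacloprid. Inclusion of the exon of 84 bases was 78.0% in control, 13.9% in chlorpyrifos, 25.8% in DDT, 49.7% in rotenone, 15.4% in carbaryl, 28.8% in deltamethrin and 33.3% in imidacloprid. Chlorpyrifos and carbaryl were the lowest for both exons. Their ranges, 67.8 and 64.1 points, were met in 13.1% and 15.7% of all exons and in 21.2% and 23.5% of exons of like level.

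**Figure D5:**
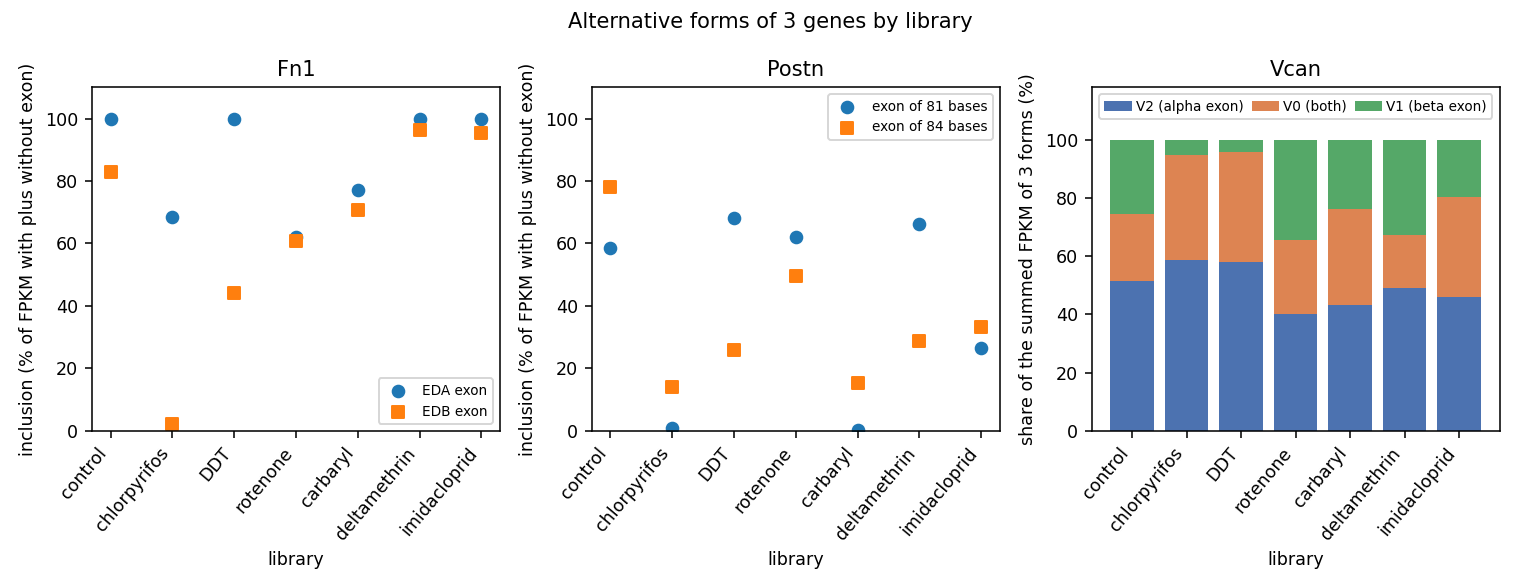
Inclusion of 2 alternative exons of Fn1 (left) and of Postn (middle), in percent of the FPKM of structures with plus without the exon, and the shares of 3 Vcan forms (right), in each library. EDB of Fn1 falls to 2.08% in chlorpyrifos, the Postn exon of 81 bases lies under 1% in chlorpyrifos and carbaryl, and V1 of Vcan makes up 5.35% or less in chlorpyrifos and DDT.

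The small leucine-rich proteoglycans, which bind collagen fibrils, were at low levels. Dcn, decorin, was at 2.86 FPKM in control, 2.43 in chlorpyrifos, 3.27 in DDT, 3.78 in rotenone, 3.07 in carbaryl, 2.52 in deltamethrin and 2.54 in imidacloprid. In carbaryl another start exon, chr10:97482367-97482547, took 64.3% of its start total, against 2.18% in control and 0% in the other libraries. Lum, lumican, was at 1.19 FPKM in control and between 0.983 FPKM in carbaryl and 1.74 FPKM in imidacloprid. Bgn, biglycan, had start totals of 2.19 FPKM in control and 2.46 to 2.96 FPKM in the exposed libraries, while few of its ends were listed.

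The large chondroitin sulfate proteoglycans of the brain were at higher levels than the fibrillar collagens, but their start and end totals disagreed, so start totals are given with no fold. Bcan, brevican, had start totals of 107 FPKM in control, 97.0 in chlorpyrifos, 99.9 in DDT, 105 in rotenone, 101 in carbaryl, 104 in deltamethrin and 94.7 in imidacloprid. Its listed end totals were 27.4 FPKM in control and 11.7 to 33.5 FPKM in the others. Its inner start exon, chr3:87997745-87997855, ranged from 7.08% of the start total in imidacloprid to 36.6% in control. Cspg5, neuroglycan C, had start totals of 30.1 FPKM in control and 30.1 to 35.7 FPKM in the others, and was highest in rotenone.

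Vcan, versican, is made in forms that differ by 2 long exons for the chondroitin sulfate attachment regions, alpha (2880 bases) and beta (5217 bases). V0 has both, V1 the beta exon and V2, the main form of the mature brain, the alpha exon. Start totals of Vcan were 16.3 FPKM in control, 20.2 in chlorpyrifos, 16.8 in DDT, 20.1 in rotenone, 18.7 in carbaryl, 19.7 in deltamethrin and 16.1 in imidacloprid. V2 was the largest of these forms in every library, from 40.2% of their sum in rotenone to 58.8% in chlorpyrifos, with 51.6% in control. V1 made up 25.6% in control, 5.35% in chlorpyrifos, 4.12% in DDT, 34.6% in rotenone, 23.7% in carbaryl, 32.8% in deltamethrin and 19.6% in imidacloprid. V0 ranged from 18.0% in deltamethrin to 38.0% in DDT. Inclusion of the alpha exon ranged over 31.6 points, a range met in 57.6% of all exons.

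Of the genes for collagen folding and crosslinking, Serpinh1 encodes HSP47, the collagen-specific chaperone of the endoplasmic reticulum. It was at 147 FPKM in control, 164 in chlorpyrifos, 91.7 in DDT, 165 in rotenone, 142 in carbaryl, 165 in deltamethrin and 82.5 in imidacloprid. DDT and imidacloprid stood apart as the low libraries, with log2 folds of -0.68 and -0.83, and the remaining libraries lay between 142 and 165 FPKM. Both ends showed it, with start totals of 97.5 and 88.0 FPKM and end totals of 86.0 and 77.0 FPKM in DDT and imidacloprid. Of the usable collagens, Col3a1, Col11a1 and Col6a2 were below control in both libraries. Their log2 folds were -0.13, -0.11 and -0.16 in DDT and -0.29, -0.08 and -0.21 in imidacloprid. Col6a2 was below control in all 6 exposed libraries and Col3a1 and Col11a1 in 5 each, so this was not particular to DDT and imidacloprid. Col4a1 was above control in both, at 0.14 and 0.10, and Col1a1 and Col4a2 were below it in DDT, at -0.13 and -0.03, and above it in imidacloprid, at 0.09 and 0.11. Inclusion of a noncoding exon of 44 bases, chr7:99351824-99351867, was 39.8% in control, 39.5% in chlorpyrifos, 61.4% in DDT, 25.1% in rotenone, 38.8% in carbaryl, 82.0% in deltamethrin and 59.3% in imidacloprid. Another noncoding exon, of 79 bases, was included at 15.3% in deltamethrin to 70.8% in carbaryl, with 47.2% in control. The ranges of these exons, 56.9 and 55.5 points, were met in 21.3% and 22.8% of all exons. The crosslinking enzyme gene Lox had no listed line. Lines at the first and last exons of Loxl2, another lysyl oxidase, carried the name of the microRNA gene Mir6950 inside it and were at 1.46 to 2.07 FPKM, with control at 1.82 FPKM.

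Genes of related matrix pathways were examined in lists also chosen with earlier results of these data known. Of 99 further genes in 8 lists, 46 were usable, and 0 of them were 2-fold or more higher or lower in any of the 6 comparisons, against 1.61% to 2.14% of all usable genes. Their median log2 fold lay between 0.01 in DDT and in rotenone and 0.05 in deltamethrin and imidacloprid, and 12 of the 46 (26.1%) were highest in rotenone, against 16.6% of all usable genes.

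For collagen modification 6 of 13 genes were usable, among them Plod3, a collagen lysyl hydroxylase, at 15.4 FPKM in control and 13.3 to 22.9 FPKM in the others. Of the other collagens 2 of 10 were usable: Col12a1, which decorates fibrils, was at 3.72 FPKM in control, 2.81 in rotenone, 3.63 in DDT and 4.63 to 4.83 in the other exposed libraries, and Col18a1, a basement membrane collagen, was at 3.99 FPKM and 3.80 to 4.64 FPKM. Among 4 usable of 9 other basement membrane genes, Dag1, the laminin receptor dystroglycan, was at 29.3 FPKM in control and 44.9 to 50.9 FPKM in all 6 exposed libraries, a low control value of the same direction as that of Mmp14. Hspg2, perlecan, was at 8.38 FPKM in control and 7.03 to 10.3 FPKM.

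Of 16 matrix receptor genes 10 were usable. Cd44, the hyaluronan receptor, was at 8.42 FPKM in control, 12.1 in chlorpyrifos and 12.9 in deltamethrin, and Itgav, an integrin alpha chain, was at 15.8 FPKM in control and 13.0 to 19.9 FPKM in the others. In the TGF-beta pathway 6 of 14 were usable. Tgfbr2, the type II receptor, was at 7.54 FPKM in control, 4.77 in chlorpyrifos and 4.59 in DDT. Smad4, the shared signal transducer, was at 16.3 FPKM in control and highest in rotenone, at 24.6 FPKM. Its log2 folds were 0.56 in rotenone, 0.43 in chlorpyrifos, 0.41 in carbaryl and 0.18 in deltamethrin. Smad4 was below control in DDT and imidacloprid. In rotenone it was the only 1 of these 6 genes above control, and their median log2 fold was -0.09.

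Of 13 genes that are targets of YAP and SRF, regulators that respond to matrix stiffness and actin, 5 were usable. Ccn1, Ccn2, Myl9 and Cnn2 of these were highest in rotenone, against 16.6% of all usable genes. Ccn1 was at 3.35 FPKM in control, 4.38 in rotenone and 2.86 to 3.27 in the other exposed libraries, and Cnn2, a calponin, at 24.1 FPKM in control and 32.5 FPKM in rotenone. The median log2 fold of the 5 genes in rotenone was 0.31, against 0.0052 over all usable genes. Myl9, a smooth muscle myosin light chain, was at 7.76 FPKM in control, 8.28 in rotenone and 3.90 in DDT, the library in which Acta2 was also lowest.

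Of 12 neural matrix genes 7 were usable, and Gpc2, a neural glypican, had the widest difference, with 32.3 FPKM in control and 17.2 FPKM in carbaryl. Ncan, neurocan, stayed between 62.3 and 74.5 FPKM in all libraries. Of 12 further proteases and inhibitors 6 were usable. Mmp15, a membrane metalloprotease related to MMP14, was at 78.1 FPKM in control, 50.8 in chlorpyrifos and 72.9 to 84.2 in the other exposed libraries, so its control value was not low. Timp1 was at 0.920 FPKM in control, 0.0328 in chlorpyrifos and 1.31 to 2.20 in the rest. On the log2(FPKM + 1) scale its log2 fold in chlorpyrifos was -0.89, inside 2-fold only because that scale compresses low levels.

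The start and end totals of the usable listed genes differed by more than 0.3 on the log2 scale in 6 of 161 pairs of gene and library, with no pseudocount. These were Sparc in DDT, Tnc in rotenone, Serpinh1 in chlorpyrifos and carbaryl, and Fn1 in control and carbaryl. Serpinh1 had start totals of 187 and 164 FPKM and end totals of 141 and 119 FPKM in its pair of libraries. Fn1 had start totals of 2.75 and 4.08 FPKM and end totals of 3.39 and 5.23 FPKM in control and carbaryl.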

How the data were processed

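Total RNA of 7 cultures was sequenced, with 1 library per group, and groups were taken from the sample titles. Per the submitters' processing notes, the tools were HISAT2 2.0.1, bcl2fastq 2.17.1.14 and cutadapt 1.9.1, and the build was GRCm38. Per the file headers, the authors deposited FPKM for each transcript-structure event (start, end, skipped exon and others). The tool that made these FPKM values, and the reads behind them, are not given in the sources used here, so the depth of each library is unknown and no interval could be set.

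The deposited FPKM values were used with no further scaling. Repeated lines, 1973 to 2078 per library, were dropped, leaving 93977 to 95776 distinct events. Genes were matched by the Ensembl identifier in each line, summed over starts and over ends, and used where both means agreed within 0.3 (log2) and averaged at least 1 FPKM. Where one end total was below 5% of the other, it was treated as missing. Folds used a pseudocount of 1 FPKM, and a gene at 0 in either library of a comparison got no fold. Exon inclusion used exons with at least 1 FPKM in every library and a rarer form of at least 5% on average; these limits and the exon analysis were chosen after seeing the data. The fold script was tested on simulated data. Python 3.11.15, pandas 2.3.3, numpy 2.4.6 and matplotlib 3.10.9 were used. Exons came from GENCODE M21 and promoter windows from RefSeq.

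The genes, their groups and all further lists were chosen with earlier results of these data known, among them the higher Acta2 and Postn in rotenone, so they give no independent support. All 40 genes are accounted for. Of each further list, the genes eligible to be named were the up to 4 usable ones with the largest absolute log2 fold in any comparison, and genes singled out beyond these were chosen after their values were seen. The alternatives were other pseudocounts, level filters, end rules, gene matching by exon boundary, median-ratio scaling and another reference level.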

Additional observations from a re-analysis of the deposited data

How the results depend on the processing

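With 1 library per group, no library could be left out in turn and no spread within a group is known. No paired analysis was possible because each group holds 1 library. Read depth is unknown, so the precision of genes near 1 FPKM could not be given. Mmp14 stayed 2-fold or more above control, with log2 folds of 1.02 to 1.53, in all 6 comparisons under 10 of the 11 other settings. Among these, the level filters and a stricter limit on end agreement cannot alter the fold of a gene that is kept. All 10 settings also use the same single control library. Against the median of the other 6 libraries in place of control, 0 listed genes were 2-fold higher in any library, and the log2 fold of Mmp14 was -0.13 in DDT and -0.0620 in imidacloprid, since that reference is not the control. By start totals alone, 1 gene, Tnc, was 2-fold lower in rotenone. Genes highest in rotenone numbered 6 of 12 with a mean of at least 5 FPKM, where fewer genes enter. The median log2 fold of the listed genes became -0.048 in DDT and 0.10 in rotenone with a pseudocount of 5 FPKM. It became 0.012 in DDT, 0.088 in rotenone and -0.0099 in imidacloprid with a mean of at least 5 FPKM. With the larger end total and no agreement filter it was 0.10 in rotenone and 0.027 in imidacloprid, and against the median of the other 6 libraries it was -0.024 in DDT, 0.10 in rotenone and -0.0078 in imidacloprid. In carbaryl the median turned from -0.03 to 0.018 by start totals alone and with the larger end total, and to 0.0039 by exon boundary. The causes of these shifts were not tested. Counts of all usable genes at 2-fold or more were 101 in chlorpyrifos, 109 in DDT, 103 in rotenone, 134 in carbaryl, 107 in deltamethrin and 108 in imidacloprid. In that order they were 198, 216, 190, 209, 199 and 192 with a pseudocount of 0.1 FPKM and 34, 40, 41, 54, 42 and 38 with 5 FPKM. They were 282, 275, 252, 296, 260 and 268 with the larger end total, 56, 59, 52, 64, 60 and 51 against the median of the other 6 libraries, and 66 in rotenone with a mean of at least 5 FPKM. Of 1440 folds of single listed genes recomputed under the other settings, 41 changed sign. Of these, 33 were against the median of the other 6 libraries and 8 under another setting. A pseudocount cannot change a sign, and level filters or a stricter limit on end agreement only decide which genes enter. Many of the 1440 folds therefore could not change sign, and the count does not measure how stable the directions are. Mmp14 was the only gene among the 41 past 2-fold against control, and Sparc in DDT went from -0.0025 to 0.30 by end totals.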
